A study of Homo sapiens with 2 samples.

Results

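BCL6, BCOR, BCORL1 and NCOR1 are a transcriptional repressor and a group of corepressors, followed here in the human lung adenocarcinoma cell line CL1-0 given an antibody to FSTL1 for 6 h or for 0 h. The members are all probe sets (sets of short array probes summarised to 1 value) whose platform annotation names 1 of these genes and no other. They numbered 11 of the 54675 probe sets on the array, and 3 of 19775 annotated genes: 3 for BCL6, 4 for BCOR and 4 for BCORL1. NCOR1 had no such probe set, so that its transcript level was not analysed here and only its start sequence was read. BCL6 and its partners were chosen because BCL6 differed strongly between these same arrays, so the values that follow are a description and support nothing by themselves.

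The 6 h group was 1 array of CL1-0 cells with 6 h of FSTL1 antibody, and the 0 h group was 1 array of CL1-0 cells with the same antibody for 0 h. Both groups came from cells stably transduced and kept under puromycin, and what had been transduced is not named in the labels. With 1 array per time there is no replicate error, no test and no p-value for any value below. Time in culture, handling and the antibody cannot be told apart, because cells kept for 6 h without the antibody were not analysed here.

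BCL6 is a sequence-specific repressor of the BTB zinc finger family, best known for holding germinal centre B cells in their proliferating state. Its zinc fingers bind DNA, and its BTB domain binds several corepressors through the same groove. NCOR1 brings in the histone deacetylase HDAC3, whereas BCOR brings in a variant Polycomb complex that ubiquitinates histone H2A. BCORL1 is the close relative of BCOR and binds the corepressor CtBP. In B cells BCL6 also binds near the start of its own gene and represses it.

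The start region of BCL6 is shown because BCL6 was the member with the large difference and because it is a described target of its own product. RefSeq sequence (GRCh38.p14, minus strand) was taken for chr3:187745439-187745718, which runs from 250 bases before to 30 bases after a start site. Capitals mark matches to TTCNNNGAA, the palindromic letters bound by STAT factors, which the BCL6 recognition sequence resembles.
BCL6 promoter: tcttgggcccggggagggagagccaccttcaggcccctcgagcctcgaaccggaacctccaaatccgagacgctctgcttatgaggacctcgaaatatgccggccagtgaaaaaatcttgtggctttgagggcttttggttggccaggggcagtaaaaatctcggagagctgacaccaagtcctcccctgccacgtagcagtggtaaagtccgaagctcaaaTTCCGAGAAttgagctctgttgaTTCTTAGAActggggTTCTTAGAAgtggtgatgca

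The capitals fall in a cluster at the start site. TTCCGAGAA began at base -28, TTCTTAGAA at base -5 and again at base 11, counting the first transcribed base as 1, and a further match, TTCTAGGAA, began at base 37, beyond the letters printed. Of 35116 RefSeq start windows of 300 bases, each 250 before and 50 after a start, 7.66% held TTCNNNGAA at least once, 0.0484% held it at least 3 times and 7 windows held it at least 4 times. All letters searched here were chosen after this sequence had been seen. The narrower letters TTCNTAGAA, a subset of TTCNNNGAA, were read on both strands and occurred in 0.948% of windows. The BCL6 window held 3 of these, at bases -5, 11 and 37, and was the 1 window with 3 or more.

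Other letters were searched on both strands in the same windows. GTAAACA, bound by FOXO factors, was in neither BCL6 window and in 3.42% of all windows. TGANTCA, bound by AP-1, was in the second BCL6 window at base -77 as TGAGTCA, and in 7.71% of all windows. TGATGCAA, of the amino acid response element type bound by ATF4 with C/EBP partners, was in the first BCL6 window at base 24, and in 0.866% of all windows. TGACGTCA, bound by CREB-type factors, was in neither BCL6 window and in 1.85% of all windows. None of these letters, TTCNNNGAA included, occurred in either start window of BCOR or of BCORL1. A NCOR1 window held TTCCTAGAA at base 6, and its other window held TGAGTCA at base -1. These are matches of letters and not binding sites, and nothing about a factor follows from them.

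Probe set values are intensity on a linear scale. Values under an intensity of 45.4, the 50th percentile of both arrays pooled, were set to that floor before log2 was taken, and a probe set counts as measured when it lay above the floor on at least 1 array. Of the 11 member probe sets 8 were measured, all of them above the floor on both arrays, and 3 lay below it on both. The whole array had a median intensity of 44.9 at 6 h, against 45.8 at 0 h. How the authors scaled the arrays to each other is not given in the sources used here.

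BCL6 was higher at 6 h. Probe set 203140_at had an intensity of 659 at 6 h, against 289.8 at 0 h, which is 2.27-fold and a log2 difference of 1.19. Over all measured probe sets 0.0319% were at least 2-fold higher at 6 h and 0.804% at least 1.5-fold higher, and BCL6 had been chosen from the same contrast. In a bulk extract, more cells with a transcript and more of it per cell cannot be told apart. This probe set was the third highest of 28239 measured sets. Among the 9277 sets at least as bright over both arrays it had the highest difference.

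The other BCL6 probe sets were much dimmer. Probe set 228758_at had 67.1 at 6 h and 50.9 at 0 h, a log2 difference of 0.40, and both values are near the floor. The third, 215990_s_at, had 42.2 at 6 h and 40.2 at 0 h, below the floor on both arrays, and so has no direction. Both measured sets were higher at 6 h, but they differed from each other by 0.79 on the log2 scale. Among genes with exactly 2 measured sets, as BCL6 has, 13 of 3402 (0.382%) had a gap as wide or wider. BCL6 was chosen because it differed strongly between these arrays, and that choice itself favours a wide gap. The other genes were not chosen in that way, so the share does not show that the gap is unusual. Over all 6122 genes with at least 2 measured sets the median gap was 0.19. The differences of probe sets that share a gene had a pooled SD of 0.16 around their mean. This SD describes scatter between sets and is not a replicate error. It holds no variation between cultures or arrays that a gene's sets share, so it does not measure the error of a difference between the times. The size of the BCL6 difference therefore rests on 1 probe set.

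BCOR, the Polycomb-linked corepressor, had probe sets that went both ways. Probe set 219433_at had 297 at 6 h and 219 at 0 h, a log2 difference of 0.44, and 2.71% of measured probe sets were as high or higher. Probe set 223566_s_at had 260.3 at 6 h and 206 at 0 h, a log2 difference of 0.34. These sets are annotated with different transcript sequences, and each was higher at 6 h. Probe set 223915_at was lower instead, with 139 at 6 h and 151 at 0 h, a log2 difference of -0.12. The remaining set, 223916_s_at, had 23.0 at 6 h and 26.8 at 0 h, both below the floor. The 223915_at and 223916_s_at sets share 1 source sequence, which differs from those of the other sets. The BCOR range of 0.56 across its 3 measured sets was reached or passed in 4.62% of 6122 genes with several sets. Of these genes 3402 have exactly 2 sets. A range tends to widen with more sets, and the share was not matched for their number.

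BCORL1, the CtBP-binding relative of BCOR, differed little and in both directions. Its brightest probe set, 219444_at, had 390.0 at 6 h and 419 at 0 h, a log2 difference of -0.10, and 23.3% of measured probe sets were as low or lower. Probe set 233572_s_at was slightly higher, with 97.8 at 6 h and 85.2 at 0 h, a log2 difference of 0.20. Probe set 234711_s_at had 46.4 at 6 h and 53.7 at 0 h, a log2 difference of -0.21 with the 6 h value just above the floor. The last set, 233574_at, had 17.1 at 6 h and 17.4 at 0 h, both below the floor. The 3 measured sets of BCORL1 spanned 0.41, which 14.3% of genes with several sets reached or passed. That share too was not matched for the number of sets.

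**Figure D1:**
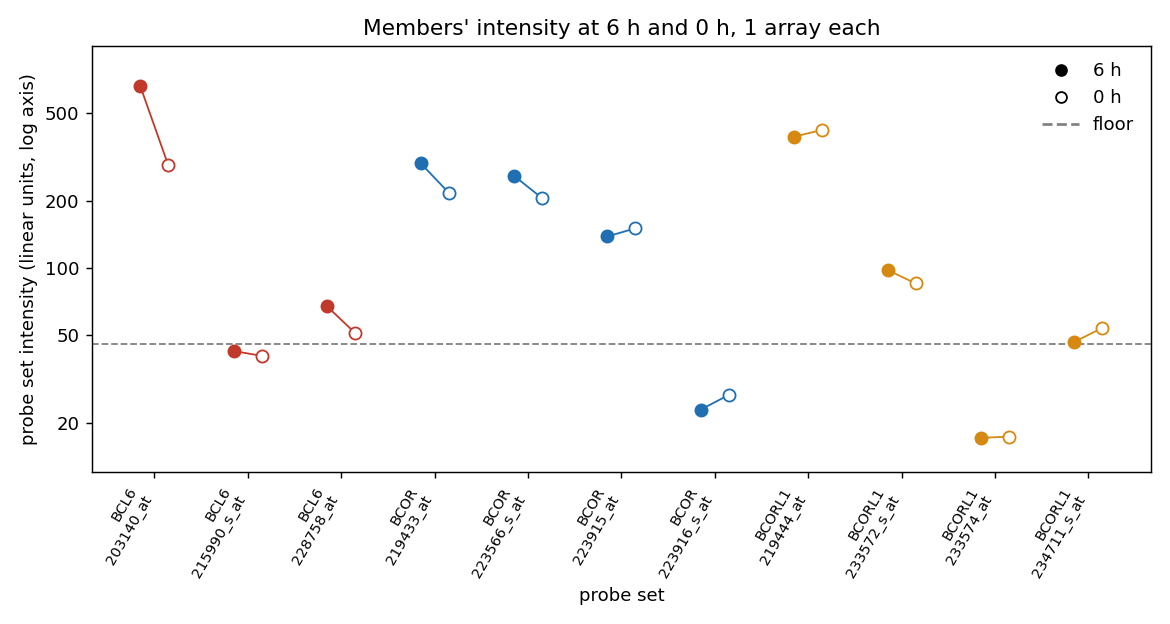
Intensity (vertical log axis, linear units) of the 11 member probe sets at 6 h (filled, left of each pair) and 0 h (open, right), 1 array each, with the floor of 45.4 as a dashed line. BCL6 203140_at, at 659 and 289.8, is the widest pair, and 3 sets lie wholly below the floor.

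Over the 8 measured member probe sets, 5 were higher and 3 lower at 6 h, with a median log2 difference of 0.27. Of all 28239 measured sets 54.9% were higher, with a median of 0.02, so the share of members that were higher (62.5%) was close to that of the whole array. One member set, of BCL6, was at least 1.5-fold higher and 0 were at least 1.5-fold lower, where 0.198% of all measured sets were at least 1.5-fold lower and 0.00708% at least 2-fold lower. With each gene represented by its brightest set, BCL6 ranked 2 of 12669 genes from the highest difference, BCOR 292 and BCORL1 9845. The share of all genes at least 2-fold higher was 0.0316%, and of genes at least 2-fold lower 0.00789%.

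**Figure D2:**
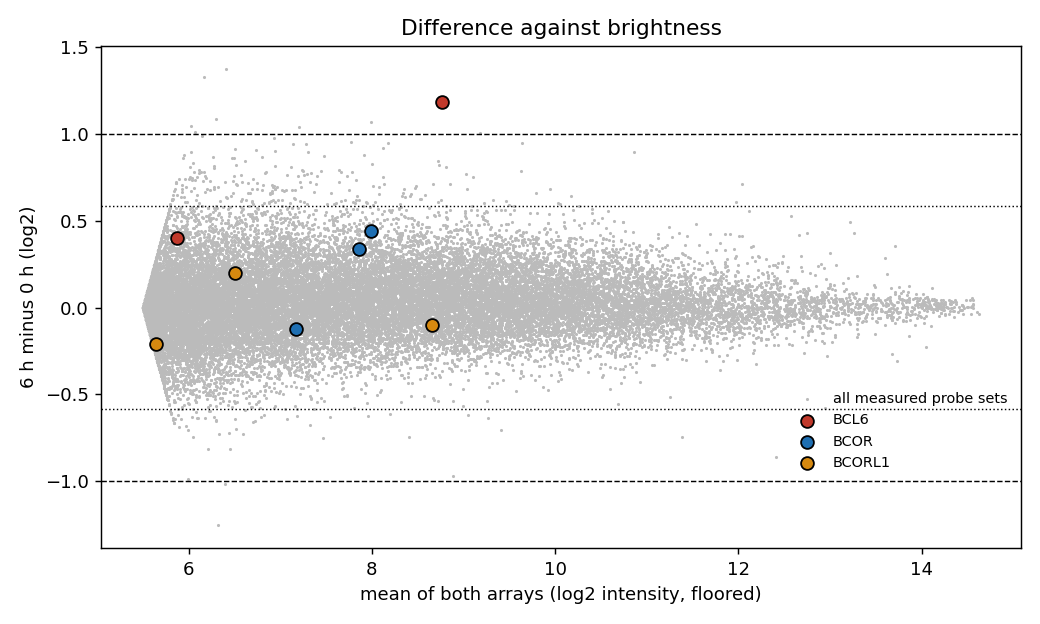
Log2 difference, 6 h minus 0 h (vertical), against mean log2 intensity of both arrays (horizontal) for 28239 measured probe sets in grey, with the members of BCL6, BCOR and BCORL1 in colour; dotted lines mark 1.5-fold and dashed lines 2-fold. BCL6 203140_at stands at 1.19 above a dense band, while the other 7 member sets lie between -0.21 and 0.44 within it.

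The member differences depended little on scaling and floor. For 203140_at of BCL6 the log2 difference lay between 1.13 and 1.19 over another floor, no floor, median centring, quantile normalization and a loess curve taken off. For 219433_at of BCOR it lay between 0.39 and 0.44, and for 219444_at of BCORL1 between -0.16 and -0.10. None of the 8 measured sets changed sign under these settings, although 228758_at and 234711_s_at were no longer measured with the floor at the 60th percentile. Of the settings tried, 1 moved BCL6 by more than the scatter between probe sets: with the median of its sets BCL6 was at 0.79, or 1.73-fold, and ranked 19 of 12669.

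**Figure D3:**
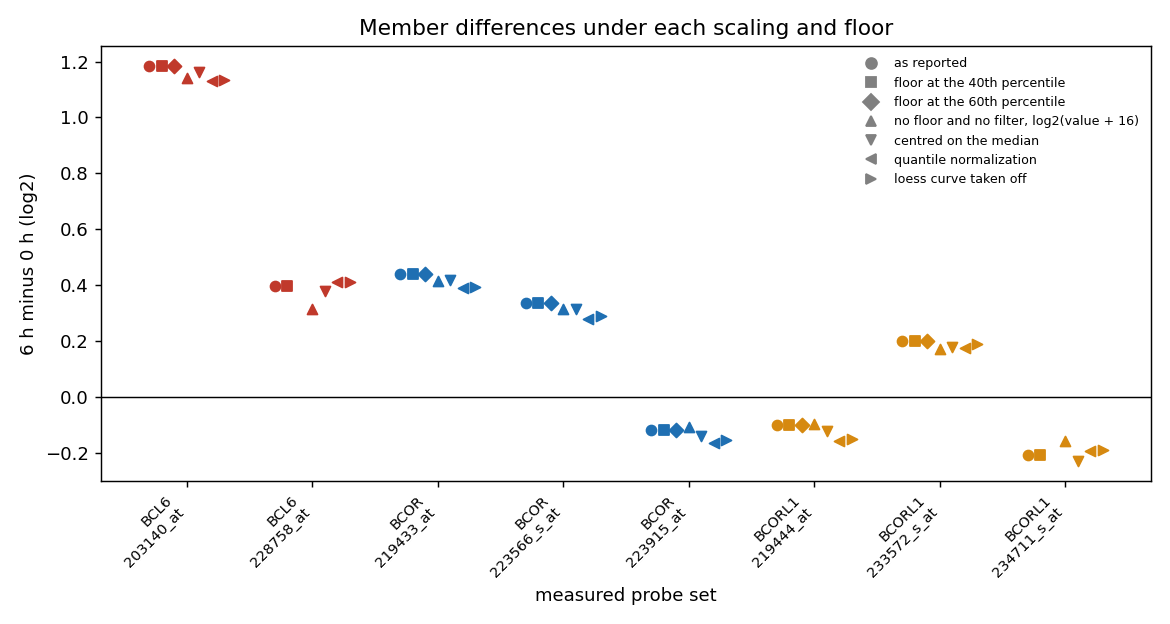
Log2 difference, 6 h minus 0 h (vertical), of the 8 measured member probe sets (horizontal) as reported and under 6 other floors or scalings (symbols). Each set keeps its sign, and BCL6 203140_at stays between 1.13 and 1.19.

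The genes with a difference most like that of BCL6 were found by the smallest gap in log2 difference on the brightest probe set, among 12062 other genes above the floor on both arrays. With 2 arrays a pattern is a single difference, so the likeness says little more than a similar size. GEM, a small GTPase, had 367 at 6 h and 175 at 0 h, a log2 difference of 1.07. DDIT3, which encodes the stress factor CHOP, had 823 at 6 h and 410.0 at 0 h, a difference of 1.01. NR4A2, an orphan nuclear receptor, had 137 at 6 h and 52.8 at 0 h, a difference of 1.37. MBNL2, a splicing regulator, had 99.9 at 6 h and 50.3 at 0 h, a difference of 0.99. GEM, DDIT3 and MBNL2 had 1 measured set each, and the 3 sets of NR4A2 lay between 1.05 and 1.37. At 0 h the NR4A2 and MBNL2 sets were near the floor, unlike those of GEM, DDIT3 and BCL6.

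The enzymes and scaffolds that the corepressors bring to BCL6 differed little. All 5 listed partners in the NCoR complex were measured, 3 higher and 2 lower at 6 h, with a median of 0.11. Over all measured genes the median was 0.02 and 54.3% were higher at 6 h. At least 1.5-fold higher were 0.75% of genes, and at least 1.5-fold lower 0.182%. None of these partners passed 1.5-fold. The deacetylase HDAC3 had 1917 at 6 h and 1779 at 0 h, a log2 difference of 0.11. The WD40 subunits TBL1XR1 and TBL1X were at 0.26 and 0.14, and the 5 sets of TBL1XR1 spanned -0.13 to 0.50. CORO2A was at -0.12 on a set near the floor, and its 2 measured sets went both ways, at -0.12 and 0.17. Its value as a gene lay between -0.14 and 0.03 over the settings tried.

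Partners of BCOR in its variant Polycomb complex were similar. Of 9 genes 7 had a probe set that names no other gene, and all 7 were measured. RNF2 and CBX8 had no such probe set. At 6 h 4 were higher and 3 lower, their median was 0.12, and 0 passed 1.5-fold in either direction. Of all measured genes 54.3% were higher, 0.75% at least 1.5-fold higher and 0.182% at least 1.5-fold lower. The counts of these partners are near that background. KDM2B, which binds unmethylated CpG DNA and recruits the complex, had 656 at 6 h and 558 at 0 h, a difference of 0.23. PCGF1, the Polycomb ring finger subunit, had 170.2 at 6 h and 192 at 0 h, a difference of -0.18, with both of its sets lower. The related subunits RYBP and YAF2 were at 0.15 and 0.12.

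Among 10 other described partners of BCL6, 7 were higher at 6 h and 3 lower, and their median was 0.07. Of all measured genes 54.3% were higher. SIN3A, the scaffold of a deacetylase complex, had 921 at 6 h and 614 at 0 h, a log2 difference of 0.58 that lies just under 1.5-fold. Its 3 measured sets spanned 0.02 to 0.58, and it was at 0.02 once _x_at and _s_at sets were left out. CTBP1, the corepressor that also binds BCORL1, had 1573 at 6 h and 1747 at 0 h, a difference of -0.15, and all 4 of its sets were lower. ZBTB17, also called MIZ1, a BTB zinc finger factor that BCL6 binds, was at -0.18. HDAC7, a class IIa deacetylase, was at 0.15.

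Factors known to act on BCL6 were next. Of 15 genes 14 had a probe set that names no other gene, and all 14 were measured. MEF2B had no such probe set. At 6 h 8 of the 14 were higher and 6 lower, their median was 0.15, and 0 passed 1.5-fold. Of all measured genes 54.3% were higher, 0.75% at least 1.5-fold higher and 0.182% at least 1.5-fold lower. The counts of these regulators are near that background. FOXO1, of a forkhead family with described activators of BCL6 transcription, had 88.6 at 6 h and 62.5 at 0 h, a log2 difference of 0.50, with both measured sets higher (0.38 and 0.50). IRF4, a repressor of BCL6 in B cells, had 73.2 at 6 h and 55.1 at 0 h, a difference of 0.41. Both genes are dim, and over the settings tried the lowest values were 0.29 for FOXO1 and 0.01 for IRF4. The acetyltransferase EP300, which inactivates BCL6 protein, had 1104 at 6 h and 861 at 0 h, a difference of 0.36, and its 2 sets were at 0.34 and 0.36. FBXO11, the ubiquitin ligase adaptor that marks BCL6 for degradation, was at 0.29, with 3 sets between 0.02 and 0.29.

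Genes described as repressed by BCL6, mostly in B and T cells, did not form a group that was lower throughout. Of 23 genes 20 had a probe set and 13 were measured, 5 higher and 8 lower at 6 h. Over all measured genes 54.3% were higher. The median of the 13 was -0.04 and lay between -0.10 and 0.01 over the settings tried. CDKN1B, a cyclin-dependent kinase inhibitor, had 1574 at 6 h and 1255 at 0 h, a log2 difference of 0.33. CDKN1A, another such inhibitor, had 63.5 at 6 h and 76.3 at 0 h, a difference of -0.26 on a dim set that lay between -0.29 and -0.07 over the settings tried. ID2, an inhibitor of helix-loop-helix factors, had 2237 at 6 h and 2521 at 0 h, a difference of -0.17, and SOCS2, a feedback inhibitor of cytokine signalling, was at 0.18. The cyclin gene CCND2 and the lymphoid genes CD69, CD80, GPR183 and S1PR1 were below the floor on both arrays, as were CD44 and CXCL10.

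The rest of the BCL6 protein family was read next. Of 47 other BTB zinc finger genes with a probe set 43 were measured. At 6 h 22 of the 43 were higher and 21 lower, where 54.3% of all measured genes were higher. The median of the 43 was 0.002, whose sign differed between settings (-0.02 to 0.03), and 0 of them passed 1.5-fold either way. As 0.75% of all measured genes were at least 1.5-fold higher and 0.182% at least 1.5-fold lower, a count of 0 in 43 is near the background and says nothing particular about the family. The highest was ZBTB42, with 79.7 at 6 h and 54.9 at 0 h, a log2 difference of 0.54. ZBTB22 was at 0.37, ZBTB12 at -0.36 and ZBTB47 at -0.44. The sets of ZBTB42, ZBTB12 and ZBTB47 are dim. Over the settings tried ZBTB42 lay between 0.14 and 0.55, ZBTB12 between -0.38 and -0.06 and ZBTB47 between -0.47 and -0.09, and with the floor set at the 60th percentile ZBTB42, at 0.14, was below ZBTB22, at 0.37. BCL6B, the close paralog of BCL6, was at 0.04 on a dim set, with 67.1 at 6 h and 65.2 at 0 h. Its 3 measured sets lay between 0.04 and 0.20. ZBTB7A, a family member with roles in lymphoid and tumour cells, was at 0.12. These 2 genes were named after their values had been seen.

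**Figure D4:**
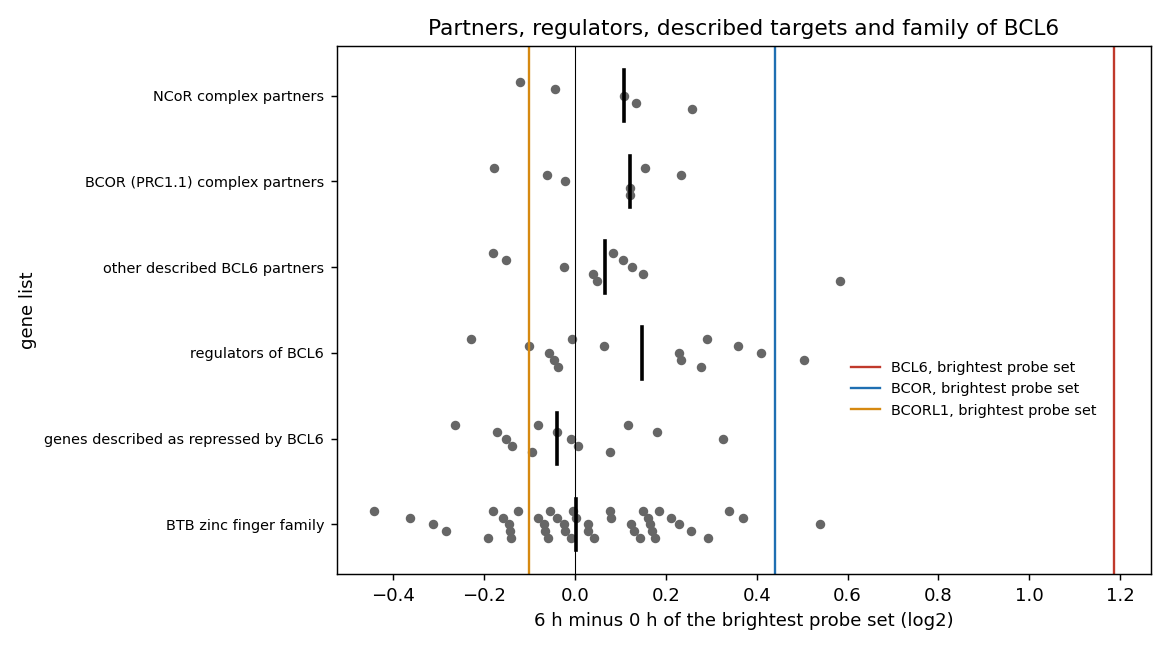
Log2 difference, 6 h minus 0 h (horizontal), of the brightest probe set of each measured gene (points) in 6 lists (rows), with list medians as black bars and the brightest sets of BCL6, BCOR and BCORL1 as vertical lines. List medians lie between -0.04 and 0.15, and the BCL6 line at 1.19 lies right of every point.

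The labels describe the cells as type II alveolar. Of 8 marker genes of that type with a probe set 5 were measured, while SFTPD, LAMP3 and SLC34A2 lay below the floor on both arrays. By the same rule 12669 of all 19775 annotated genes were measured. Being measured therefore does not by itself show that a marker, of this or any list below, is expressed. ABCA3 was the brightest, with 208 at 6 h and 173 at 0 h. SFTPB had 133 at 6 h and 104 at 0 h, and SFTPC had 92.3 at 6 h and 113 at 0 h. NKX2-1, with 68.6 at 6 h and 56.7 at 0 h, and NAPSA, with 61.0 at 6 h and 51.1 at 0 h, were near the floor. The measured sets of SFTPB, SFTPC and NKX2-1 went both ways. The epithelial markers EPCAM, CDH1 and KRT19 were also below the floor on both arrays, and 3 of 6 epithelial markers were measured. KRT18 had 121 at 6 h and 148 at 0 h. KRT8, with 52.4 at 6 h and 48.1 at 0 h, and KRT7, with 49.8 at 6 h and 57.7 at 0 h, were near the floor. Because BCL6 is a B cell factor, B cell markers were read as well. Of 5 B cell markers with a probe set 3 were measured: CD79A had 118 at 6 h and 136 at 0 h, CD79B had 50.5 at 6 h and 52.7 at 0 h, and CD22 had 54.7 at 6 h and 48.3 at 0 h. MS4A1 and PAX5 were below the floor on both arrays. The summed intensity of the 5 markers, the 2 below the floor included, was 282 at 6 h and 302 at 0 h. Their part in the BCL6 difference was not tested. PTPRC, common to all leukocytes, was at 12.9 at 6 h and 17.0 at 0 h, below the floor. Of the other marker lists, 1 of 6 T cell and other leukocyte genes, 2 of 6 fibroblast genes and 1 of 6 endothelial genes were measured.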

How the data were processed

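The authors deposited linear intensity values, 1 per probe set and array, made with MAS5, per the submitters' processing notes; its version and any scaling between arrays are not given in the sources used here. This method subtracts background and mismatch signal, so dim values are noisy. From the deposited values, a floor at the 50th percentile (45.4), log2 values and the difference 6 h minus 0 h were computed with Python 3.11.15, numpy 2.4.6 and pandas 2.3.3. Of 54675 probe sets 41097 had 1 gene in the platform annotation, and 41043 of these were matched by gene identifier to RefSeq for their current symbol. A gene was represented by its measured probe set with the highest mean log2. The computation was tested on simulated data. Known changes were put only on probe sets well above the floor, so recovery of changes in dim sets was not tested. Members and gene lists were chosen with earlier results of these data known. Named genes were all members, up to 4 measured genes per list with the largest absolute difference, and the 4 genes nearest to BCL6; marker genes and list genes below the floor were named after their values were seen. The BTB zinc finger list took all symbols starting with ZBTB, and antisense, divergent and opposite-strand genes were then taken out by name. The number of arrays limits the precision.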

Additional observations from a re-analysis of the deposited data

How the results depend on the processing

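Alternatives were floors at the 40th and 60th percentiles, no floor and no filter with log2(value + 16), median centring, quantile normalization, a loess curve of span 0.3 (statsmodels 0.14.6), the median over each gene's sets, and leaving out _x_at and _s_at sets. BCL6, BCOR and BCORL1 kept their direction as genes under all 8. BCL6 moved by more than the scatter between probe sets (SD 0.16) with the median of its sets alone, to 0.79. Genes at least 1.5-fold lower numbered 23, but 41 with the 40th percentile floor, 10 with the 60th and 11 with no floor. Genes at least 2-fold higher numbered 4, and 7 with the 40th percentile floor. Genes at least 2-fold lower numbered 1, then 2 with the 40th percentile floor, 2 under each of median centring, quantile normalization and loess, and 0 with the 60th percentile floor or without _x_at and _s_at sets. The cause was not tested. No paired analysis was possible because each time has 1 array. Dim sets near the floor, among them 228758_at of BCL6 and 234711_s_at of BCORL1, are limited by background.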

Other observations

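The start windows of the genes nearest to BCL6 in difference were read for the same letters. Windows were found for DDIT3 and MBNL2, with 2 each. The DDIT3 windows overlap almost wholly, and a single TGACTCA, a match to TGANTCA, lies in both, at base -241 or -238 by the start used. TGANTCA was at 2 places in 1 MBNL2 window, at bases -86 and -65, where 7.71% of all windows held it at least once and 0.515% at least 2 times. None of these 4 windows held TTCNNNGAA. The letters were chosen after the BCL6 sequence had been seen, and these counts are values only.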
